A study of Mus musculus with 24 samples.

Results

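Nuclear genes of respiratory complexes II, III, IV and V were followed in the tibialis anterior muscle of mice electroporated with a dominant negative FOXO construct. The genes were taken by name, as Sdha, Sdhb, Sdhc, Sdhd and Cyc1 and every symbol that begins with Uqcr, with Cox and a digit, or with Atp5, on probe sets that carry exactly 1 symbol. This gave 56 genes. Of these, 54 entered the fit among 20379 genes in all, 4 of complex II, 8 of complex III, 25 of complex IV and 17 of complex V, and the pseudogenes Atp5c1-ps and Uqcrh-ps1 were not tested. Cox11, Cox6c and Uqcr10 lie on probe sets that carry several symbols and have no difference here, and of the 6 subunits that the mitochondrial genome encodes for complexes III to V, 0 had a named probe set.

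In FOXO1dn mice the tibialis anterior of a leg was labelled as transfected with FOXO1dn, a FOXO1 protein cut short of its transactivation domain, and the contralateral leg with a control plasmid, which the methods describe as encoding LacZ. In FOXO3dn mice the construct was FOXO3dn, with the same kind of control in the other leg. There were 6 mice for each construct, hence 4 groups of 6 arrays, and all mice were male C57BL/6J of 30 weeks. Muscles were taken 2 h after oral glucose that followed a 4 h fast. Plasmid electroporation is transient, the share of fibers that took up a plasmid was not measured here, and the arrays read RNA of the whole muscle, with its vessels, nerves and immune cells. Affymetrix Mouse Gene 2.1 ST arrays measured the RNA, and the values are log2 intensities from robust multi-array averaging (RMA). A difference is the mean of construct-labelled legs minus that of the control-labelled legs of the same mice, tested by limma with the mouse as a block and with Benjamini-Hochberg adjustment over all 20379 genes. An increase or decrease was called at an adjusted p under 0.05.

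Complex II, succinate dehydrogenase, oxidizes succinate and feeds electrons to ubiquinone. Complex III passes electrons from ubiquinol to cytochrome c, complex IV, cytochrome c oxidase, passes them to oxygen, and complex V, the ATP synthase, uses the proton gradient built along the chain to make ATP. In fast muscle such as the tibialis anterior the amount of these complexes rises with the oxidative capacity of the fibers, and several subunits of complex IV exist as a heart and muscle isoform and a common isoform encoded by separate genes.

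By the array labels, differences of respiratory and immune genes run opposite to the direction that the study states for its constructs. For respiratory RNA, the study states that more complex IV subunits decreased than increased with FOXO1dn. It also reports lower protein of some complexes with either construct. Each leg is therefore named by its label, as a FOXO1dn-labelled, FOXO3dn-labelled or control-labelled leg. The dimmer of the Foxo1 probe sets lay at 3.61 to 3.88 in FOXO1dn-labelled legs, against 4.31 to 4.98 in their control-labelled legs, and at 3.99 to 4.52 in FOXO3dn-labelled legs, against 4.54 to 5.21 in their control-labelled legs. It was therefore lower in the construct-labelled leg of 6 of 6 mice for either construct, with log2 differences of -0.99 and -0.70 (adjusted p = 3.8e-06 and 0.0051 over probe sets). The brighter Foxo1 probe set lay on the other side of 0, with differences of 0.11 for FOXO1dn and 0.26 for FOXO3dn (adjusted p = 0.694 and 0.386), and was lower in 2 of 6 and 1 of 6 mice. The Foxo3 probe set differed by 0.01 and 0.09. Because the methods describe optimized construct sequences, these probes do not check which leg received a construct. For the endogenous Foxo1 transcript in FOXO1dn muscle the study states a direction that is the one of the labels at the dimmer probe set. The study also states a decrease of endogenous Foxo3 with FOXO1dn, where the Foxo3 probe set differed by 0.01. For FOXO3dn it states no change of either transcript, where the dimmer Foxo1 probe set differed by -0.70. Whether the labels of construct and control legs were exchanged was not tested, and every direction given here is that of the labels.

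Most nuclear genes of complexes II to V were higher in FOXO1dn-labelled legs, by small amounts, and 3 genes of complex IV were lower. Of the 54 genes, 10 rose, against a background of 5.97% of all genes tested, and 3 fell, against a background of 10.8%. Those that rose were Sdha, Uqcrc2, Cox7a1, Cox16, Cox5a, Cox14, Cox7a2, Cox6a2, Atp5e and Atp5pb, and those that fell were Cox6a1, Cox8a and Cox18. At an unadjusted p under 0.05 26 were above 0, where 11% of all genes passed, and 4 below 0, where 15.8% passed. The median log2 difference was 0.17, or 12.3%, beside 0.01 over all genes, and 44 of the 54 differences were above 0, beside 52.6% of all genes. By complex, the medians were 0.15 for II, 0.20 for III, 0.16 for IV and 0.15 for V. Of the 54 genes, 0 passed the additional limit of the study, an absolute log2 difference over 1, where 2.11% of all genes passed. The difference was positive in 6 of 6 mice for 20 of the 54 genes, where 8.5% of all genes were, and negative in 6 of 6 for 3, where 9.97% were.

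In FOXO3dn-labelled legs the genes lay to the same side with larger spread between mice, and limma called 0 of 54, where 0.162% of all genes were called higher and 0.496% lower. Without adjustment, 15 genes were higher at p under 0.05, where 6.49% of all genes passed, and 0 were lower, where 8.27% passed. The median log2 difference was 0.14, or 10.2%, beside 0.00 over all genes, and 48 of 54 differences were above 0, beside 51.2% of all genes. Medians by complex were 0.16 for II, 0.16 for III, 0.14 for IV and 0.12 for V. The difference was positive in 6 of 6 mice for 6 genes, where 3.31% of all genes were, and negative in 6 of 6 for 0, where 4.98% were. FOXO3dn replicate 2 carried much of this. Without it the median of the 54 genes was 0.07 and 4 were higher at an unadjusted p under 0.05, whereas without FOXO3dn replicate 1 the median was 0.17 and 22 were higher.

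**Figure D1:**
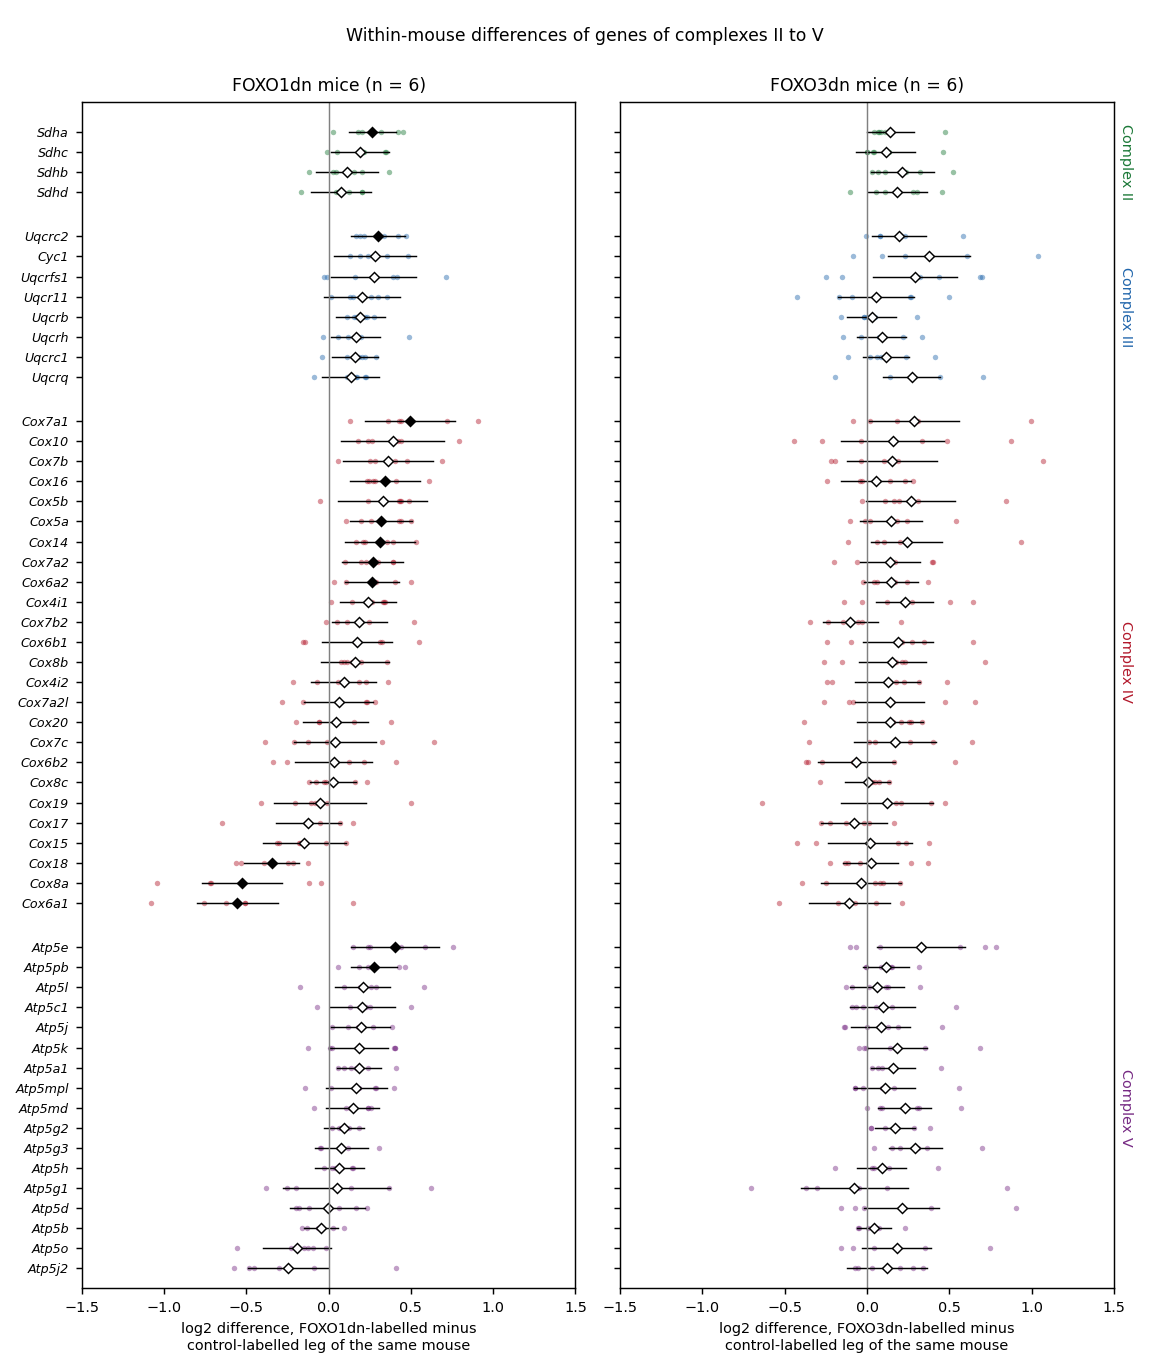
Log2 difference of each of the 54 genes between the construct-labelled and the control-labelled leg, by complex, in FOXO1dn mice (left) and FOXO3dn mice (right). Small points are mice, diamonds are means with the 95% interval of limma, and filled diamonds passed at an adjusted p under 0.05. In FOXO1dn mice 10 filled diamonds lie to the right of 0 and 3, all of complex IV, to the left, and in FOXO3dn mice 0 diamonds are filled.

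Other cells of the muscle moved in the same comparison. Of 29 measured macrophage and monocyte markers, 25 fell in FOXO1dn-labelled legs, and their summed linear intensity was 2150 to 5980, against 6580 to 17800 in control-labelled legs. In FOXO3dn-labelled legs 0 of 29 passed, 18 were lower at an unadjusted p under 0.05, and the sum was 1800 to 6310, against 3940 to 10800 in control-labelled legs. Of 25 skeletal muscle fiber markers, 15 rose in FOXO1dn-labelled legs, where 5.97% of all genes did. Their sum was 117000 to 120000, against 87900 to 112000 in control-labelled legs. Of 9 slow fiber markers 0 rose and 3 fell, Atp2a2, Tpm3 and Tnnc1, where 10.8% of all genes fell. Of the 9 differences 5 were above 0, beside 52.6% of all genes, and the median was 0.03. Atp2a2, at a mean of 7.27, was the brightest of the 9 and so weighs most in their sum. The slow fiber sum was 310 to 438 in FOXO1dn-labelled legs, against 349 to 745 in control-labelled legs. Of 8 denervation markers, 7 fell. For FOXO3dn, 0 fiber, 0 slow fiber and 0 denervation markers passed. An unadjusted p under 0.05 was reached by 8 of the 25 fiber markers, 7 higher and 1 lower. It was also reached by 2 slow fiber markers above 0 and 2 below 0, and by 3 denervation markers, which were lower. In whole muscle, fewer cells of a type and less RNA per cell cannot be told apart, and the part of these markers in the differences of the respiratory genes was not tested.

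Mice differed in how far the genes of complexes II to V moved. The median over the 54 genes was 0.15, 0.24, 0.18, 0.18, 0.20 and 0.01 in FOXO1dn replicates 1 to 6, so that replicate 6 stood near 0. In the same mice the median of the macrophage and monocyte markers was -0.15, -2.15, -2.34, -1.58, -1.65 and -1.66, and that of the fiber markers 0.09, 0.28, 0.42, 0.33, 0.17 and 0.13. Replicate 1 had the smallest shift of macrophage markers, and its respiratory median lay between that of replicate 6 and those of the other 4 mice. In FOXO3dn replicates 1 to 6 the median over the 54 genes was -0.10, 0.45, 0.15, -0.01, 0.12 and 0.22, and that of the macrophage markers -0.29, -2.10, -0.45, -0.33, -0.47 and -0.76. FOXO3dn replicate 2 had the highest respiratory median and the lowest macrophage median of its cohort.

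**Figure D2:**
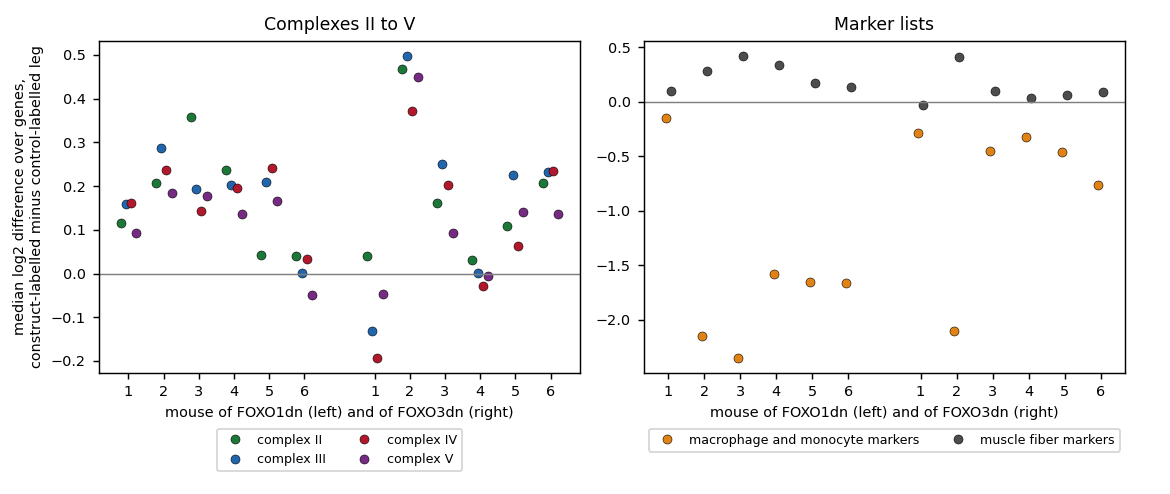
Median log2 difference between construct-labelled and control-labelled legs for each mouse, over the genes of each of complexes II to V (left) and over macrophage and fiber markers (right). FOXO1dn mice 1 to 6 stand left of FOXO3dn mice 1 to 6. FOXO3dn mouse 2 had the highest median for each complex, 0.47 for II, 0.50 for III, 0.37 for IV and 0.45 for V. It also had the lowest median over macrophage markers among FOXO3dn mice, -2.10.

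The 4 genes of complex II were above 0 for either construct, and Sdha passed for FOXO1dn. Sdha, the flavoprotein that binds succinate, had log2 intensities of 11.09 to 11.25 (median 11.20) in FOXO1dn-labelled legs, against 10.75 to 11.06 (median 10.93) in control-labelled legs. The 2 groups did not overlap, as for 6 of the 54 genes, all higher, where 2.64% of all genes were higher and 4.49% lower without overlap. Its difference was 0.27 (standard error 0.07, higher in 6 of 6 mice, adjusted p = 0.00805 from limma), an increase of 20.3%. It remained called without any single mouse, with adjusted p of 0.00424 to 0.0491. Sdhc and Sdhd, the membrane anchors, differed by 0.19 (adjusted p = 0.14) and 0.08 (adjusted p = 0.664), and Sdhb, the iron-sulfur subunit, by 0.11 (adjusted p = 0.505). None of these 3 passed, and their legs overlapped.

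In FOXO3dn mice Sdhb spanned 8.51 to 8.93 (median 8.83) in FOXO3dn-labelled legs, against 8.19 to 8.80 (median 8.66) in control-labelled legs. Its difference of 0.22 was the widest of complex II (higher in 6 of 6 mice, unadjusted p = 0.0283, adjusted p = 0.272 from limma). Sdhd differed by 0.18, Sdha by 0.14 and Sdhc by 0.11, with adjusted p of 0.33, 0.344 and 0.587, and the legs of each overlapped. Sdha was higher in 6 of 6 FOXO3dn mice, by 0.47 in replicate 2 and by 0.05 to 0.11 in the other 5.

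Each of the 8 genes of complex III had a positive difference for either construct. Uqcrc2, a core protein of the matrix side, had 10.35 to 10.53 (median 10.48) in FOXO1dn-labelled legs, against 10.01 to 10.29 (median 10.18) in control-labelled legs, without overlap. It rose by 0.30 on the log2 scale (standard error 0.08, 6 of 6 mice, adjusted p = 0.0102 from limma), with adjusted p = 0.057 without FOXO1dn replicate 3. Cyc1, the cytochrome c1 that hands electrons to cytochrome c, also did not overlap, with 8.79 to 9.07 (median 8.86) in FOXO1dn-labelled legs, against 8.48 to 8.76 (median 8.62) in control-labelled legs. Its difference of 0.28 was higher in 6 of 6 mice and did not pass after adjustment (adjusted p = 0.125, and 0.0104 in a fit of the 12 FOXO1dn arrays alone). Uqcrfs1, the Rieske iron-sulfur protein, differed by 0.27 (4 of 6 mice, adjusted p = 0.152), and the small subunits Uqcr11 and Uqcrb by 0.20 and 0.19 (6 of 6 mice each, adjusted p = 0.267 and 0.0732). The remaining 3, Uqcrh, Uqcrc1 and Uqcrq, ranged over 0.14 to 0.17.

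Cyc1 had the largest difference of the 54 genes in FOXO3dn mice. It spanned 8.47 to 8.91 (median 8.74) in FOXO3dn-labelled legs, against 7.81 to 8.78 (median 8.40) in control-labelled legs, so that the groups overlapped. The difference was 0.38 (standard error 0.12, 5 of 6 mice, unadjusted p = 0.0045, adjusted p = 0.134 from limma). By mouse it was 0.09, 1.04, 0.38, -0.09, 0.23 and 0.60 in replicates 1 to 6, and without replicate 2 the mean was 0.24 (adjusted p = 0.5). Uqcrfs1 differed by 0.29 (4 of 6 mice, adjusted p = 0.271) and Uqcrq, a small subunit measured at a mean of 4.06, by 0.27 (5 of 6 mice, adjusted p = 0.118, and 0.0397 without FOXO3dn replicate 1). At an unadjusted p under 0.05, 4 of the 8 genes were higher in FOXO3dn-labelled legs, where 6.49% of all genes passed. In FOXO1dn-labelled legs 6 of 8 were, where 11% passed. Between the constructs 0 of the 8 differed at an unadjusted p under 0.05.

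Complex IV held the widest differences in both directions for FOXO1dn. Of its 25 genes, 6 were called higher, where 5.97% of all genes were, and 3 lower, where 10.8% were. The share called lower was thus close to that of all genes. Over the 12 subunits other than isoforms best known from lung or testis, 4 rose and 2 fell, with a median of 0.25. Cox7a1, the heart and muscle isoform of subunit VIIa, had 10.68 to 10.98 (median 10.83) in FOXO1dn-labelled legs, against 9.87 to 10.55 (median 10.45) in control-labelled legs, without overlap. It rose by 0.50 (standard error 0.13, 6 of 6 mice, adjusted p = 0.00972 from limma), or 41.1%, the largest increase of the 54 genes, with adjusted p = 0.0514 without FOXO1dn replicate 3. Cox5a, subunit Va, rose by 0.32 (6 of 6 mice, adjusted p = 0.0149), with adjusted p of 0.0604, 0.0511 and 0.0668 without FOXO1dn replicate 2, 3 or 5. Cox5b, subunit Vb, differed by 0.33 in 5 of 6 mice and did not pass (adjusted p = 0.0951, and 0.0357 with the mouse as a fixed block). Cox7b, subunit VIIb, spanned 8.64 to 9.22 (median 8.81) in FOXO1dn-labelled legs, against 8.16 to 8.70 (median 8.51) in control-labelled legs, with some overlap. Its difference of 0.36 was larger than that of most genes called higher and was positive in 6 of 6 mice, but did not pass (adjusted p = 0.0673). Cox4i1, the common isoform of subunit IV, differed by 0.24 in 6 of 6 mice, just short of the threshold (adjusted p = 0.0502).

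In subunits VIa and VIII the heart and muscle isoform and the common isoform lay on opposite sides of 0 in FOXO1dn mice. Cox6a1, the common isoform of subunit VIa, had 9.54 to 10.06 (median 9.76) in FOXO1dn-labelled legs, against 9.91 to 10.74 (median 10.32) in control-labelled legs. By mouse the difference was 0.15 in replicate 1 and -0.51 to -1.08 in the other 5. The mean difference was -0.55 (standard error 0.12, adjusted p = 0.00184 from limma), or -31.9%, and remained called without any single mouse, with adjusted p up to 0.0184. Cox6a2, its muscle isoform, had 11.80 to 11.99 (median 11.88) in FOXO1dn-labelled legs, against 11.30 to 11.86 (median 11.67) in control-labelled legs, with some overlap. It rose by 0.27 (6 of 6 mice, adjusted p = 0.0201), with adjusted p of 0.0792 and 0.0752 without FOXO1dn replicate 2 or 3. The muscle isoform minus the common isoform was 0.82 ± 0.50 (SD, n = 6 mice), above 0 in 6 of 6. The exact two-sided sign-flip test gave p = 0.03125, which is the lowest value possible with 6 mice, and adjusted p = 0.0938 over 3 pairs and 2 constructs.

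Subunit VIII showed the same order. Cox8a, the common isoform, had 7.69 to 8.08 (median 7.97) in FOXO1dn-labelled legs, against 8.05 to 8.96 (median 8.50) in control-labelled legs, and was lower in 6 of 6 mice, with differences of -0.04 in replicate 1 and -1.04 in replicate 3 at the extremes. Its log2 intensity fell by 0.53 (standard error 0.12, adjusted p = 0.0025 from limma), and its adjusted p was at most 0.0194 without any single mouse. Cox8b, the muscle isoform, had a difference of 0.16 in 6 of 6 mice that did not pass (adjusted p = 0.333), with 10.24 to 10.53 (median 10.40) in FOXO1dn-labelled legs, against 10.04 to 10.46 (median 10.19) in control-labelled legs. Cox8b minus Cox8a was 0.69 ± 0.33 (SD, n = 6 mice), above 0 in 6 of 6 (exact two-sided sign-flip test, p = 0.03125, adjusted p = 0.0938). Neither isoform pair passed after adjustment over the 6 tests.

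In subunit VIIa both isoforms rose. Cox7a2, the common isoform, had 8.35 to 8.60 (median 8.52) in FOXO1dn-labelled legs, against 8.09 to 8.36 (median 8.23) in control-labelled legs. It rose by 0.27 (6 of 6 mice, adjusted p = 0.0381 from limma), and the call was lost without any 1 of the 6 mice, with adjusted p of 0.0519 to 0.126. Cox7a1 minus Cox7a2 was 0.23 ± 0.31 (SD, n = 6 mice), above 0 in 5 of 6 (exact two-sided sign-flip test, p = 0.0938, adjusted p = 0.188). In FOXO3dn mice the pairs differed by 0.25 ± 0.38 for subunit VIa, 0.14 ± 0.29 for VIIa and 0.19 ± 0.54 for VIII, each above 0 in 4 of 6 mice (exact two-sided sign-flip tests, p = 0.156, 0.344 and 0.469, adjusted p = 0.234, 0.412 and 0.469).

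**Figure D3:**
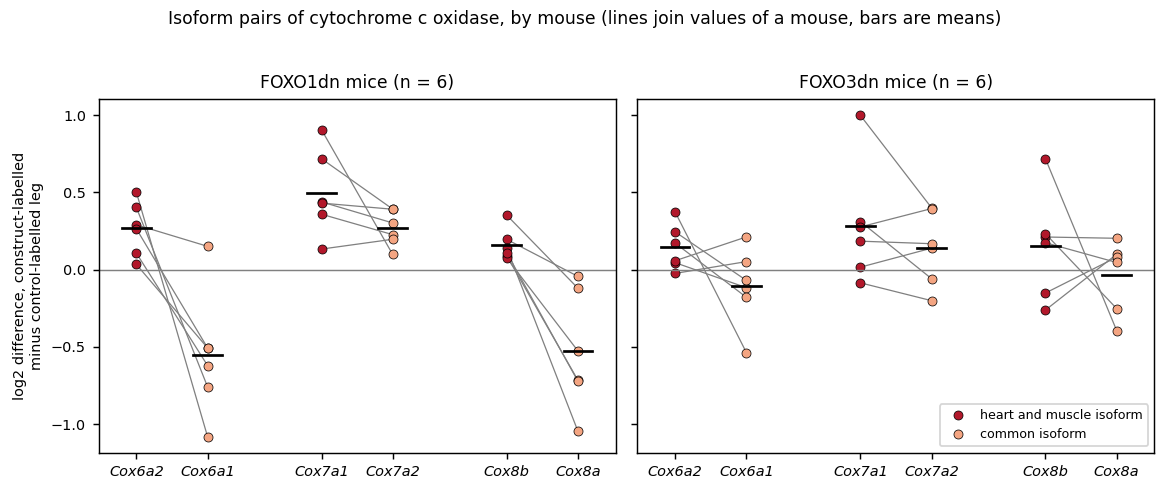
Log2 difference between construct-labelled and control-labelled legs of the heart and muscle isoform (dark) and the common isoform (light) of subunits VIa, VIIa and VIII, by mouse, with lines joining values of a mouse and bars at the means. In FOXO1dn mice the line falls from the muscle to the common isoform in 6 of 6 mice for VIa and VIII and in 5 of 6 for VIIa, and in FOXO3dn mice in 4 of 6 for each.

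The stretch before the start site was also read for the isoform genes. No isoform pair had passed after adjustment, and a link between these sequences and the differences was not tested. RefSeq start sites of build GRCm38.p6 were found for 41 of the 54 genes, among them both isoforms of VIIa and VIII and Cox6a1. Below are the 250 bases that end just before the start, 5′ to 3′ on the strand of the gene, with capitals at each match to a searched motif.
Cox6a1, chr5:115348959-115349208, minus strand: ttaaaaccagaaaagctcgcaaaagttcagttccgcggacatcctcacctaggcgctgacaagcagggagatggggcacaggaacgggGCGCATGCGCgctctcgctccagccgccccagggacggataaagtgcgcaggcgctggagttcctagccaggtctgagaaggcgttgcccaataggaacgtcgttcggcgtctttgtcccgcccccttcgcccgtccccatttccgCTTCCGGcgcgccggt
Cox7a1, chr7:30183921-30184170, plus strand: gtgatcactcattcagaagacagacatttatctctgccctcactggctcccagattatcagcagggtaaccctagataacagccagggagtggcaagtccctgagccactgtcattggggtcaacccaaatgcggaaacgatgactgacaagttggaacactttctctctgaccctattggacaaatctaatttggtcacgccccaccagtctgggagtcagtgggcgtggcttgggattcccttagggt
Cox7a2, chr9:79759854-79760103, minus strand: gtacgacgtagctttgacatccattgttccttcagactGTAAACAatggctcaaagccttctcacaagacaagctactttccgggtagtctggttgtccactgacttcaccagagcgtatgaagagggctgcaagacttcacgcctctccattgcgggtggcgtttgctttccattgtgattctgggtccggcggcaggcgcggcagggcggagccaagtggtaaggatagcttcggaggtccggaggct
Cox8a, chr19:7217617-7217866, minus strand: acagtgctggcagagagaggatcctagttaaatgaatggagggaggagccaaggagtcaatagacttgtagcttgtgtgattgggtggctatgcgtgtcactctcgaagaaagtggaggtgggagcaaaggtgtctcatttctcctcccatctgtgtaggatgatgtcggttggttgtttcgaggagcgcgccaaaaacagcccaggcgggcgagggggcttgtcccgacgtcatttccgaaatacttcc
Cox8b, chr7:140900447-140900696, minus strand: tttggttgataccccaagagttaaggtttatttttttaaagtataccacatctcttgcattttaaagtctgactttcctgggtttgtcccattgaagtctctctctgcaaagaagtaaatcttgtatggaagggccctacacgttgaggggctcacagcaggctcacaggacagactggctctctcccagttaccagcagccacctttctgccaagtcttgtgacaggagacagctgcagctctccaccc
The motifs searched on both strands were TGTTTAC (the core of FOXO sites), GCGCATGCG (nuclear respiratory factor 1, NRF1), CCGGAAG (the ETS family with GABP), TCAAGGTCA (estrogen-related receptors, ERR) and AAGATGGCG (YY1), and overlapping matches of a motif counted once. The capitals mark an NRF1 match 162 bases and an ETS match 16 bases before the start of Cox6a1, and a FOXO core 212 bases before that of Cox7a2. The windows of Cox7a1, Cox8a and Cox8b held 0 matches.

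Among the 41 genes, 12 held the ETS motif (29.3%, beside 10.03% of 16918 genes with such a window), 4 the NRF1 motif (9.76%, beside 2.24%) and 1 the FOXO core (2.44%, beside 3.14%). The NRF1 matches were those of Cox6a1, Atp5g2, Atp5k and Atp5l. Of the 8 genes called higher that had a window, 1 held a FOXO core, 2 an ETS motif and 0 an NRF1 motif. The ERR motif matched 1 gene (2.44%, beside 0.34%), Atp5g3, which had the smallest p of the 54 genes in FOXO3dn mice and is shown here for that reason, with the match 52 bases before its start.
Atp5g3, chr2:73911327-73911576, minus strand: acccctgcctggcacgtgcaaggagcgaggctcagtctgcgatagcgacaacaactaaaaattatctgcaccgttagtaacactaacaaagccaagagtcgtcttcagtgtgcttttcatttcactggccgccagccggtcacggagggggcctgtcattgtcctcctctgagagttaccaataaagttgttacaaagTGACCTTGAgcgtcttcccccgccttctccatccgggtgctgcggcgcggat
The YY1 motif matched Atp5j alone (2.44%, beside 0.87%). A match is a run of letters and no measured site.

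Factors that assemble complex IV moved both ways in FOXO1dn mice. Cox18, which inserts the mitochondrially encoded subunit COX2 into the membrane, had 5.29 to 5.68 (median 5.42) in FOXO1dn-labelled legs, against 5.51 to 5.95 (median 5.83) in control-labelled legs. Its log2 intensity fell by 0.35 (standard error 0.08, lower in 6 of 6 mice, adjusted p = 0.00348 from limma), with adjusted p of at most 0.0232 without any single mouse, and differed by -0.18 after quantile normalization (adjusted p = 0.163). Cox16, which acts in the maturation of COX2, and Cox14, an early assembly factor, rose by 0.34 and 0.31 (6 of 6 mice each, adjusted p = 0.0217 and 0.0386). The call of Cox14 was lost without any 1 of the 6 mice, with adjusted p of 0.0521 to 0.131, and that of Cox16 without FOXO1dn replicate 3 (adjusted p = 0.0849). Cox10, the farnesyltransferase of heme A synthesis, differed by 0.39 in 6 of 6 mice without passing (adjusted p = 0.0835), while its partner enzyme Cox15 differed by -0.15 (1 of 6 mice higher, adjusted p = 0.518). The copper factors Cox17 and Cox19 differed by -0.12 and -0.05.

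In FOXO3dn mice the same genes of complex IV were close to their control-labelled legs or above them. Cox6a1 had 9.49 to 9.95 (median 9.57) in FOXO3dn-labelled legs, against 9.37 to 10.03 (median 9.80) in control-labelled legs, a difference of -0.11 (adjusted p = 0.747 from limma). Cox8a differed by -0.04 and Cox18 by 0.02, with adjusted p of 0.93 and 0.939. Cox7a1 spanned 10.42 to 10.81 (median 10.75) in FOXO3dn-labelled legs, against 9.79 to 10.83 (median 10.54) in control-labelled legs, a difference of 0.28 in 5 of 6 mice (adjusted p = 0.32, and 0.14 on the log2 scale without FOXO3dn replicate 2). Cox5b differed by 0.26, Cox14 by 0.24 and Cox4i1 by 0.23. At an unadjusted p under 0.05, 3 of 25 genes of complex IV were higher, where 6.49% of all genes passed. Of the 25, 0 were lower, where 8.27% passed. Cox7b differed by 0.15 (adjusted p = 0.652), with 1.07 in replicate 2 and -0.22 to 0.19 in the other 5.

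**Figure D4:**
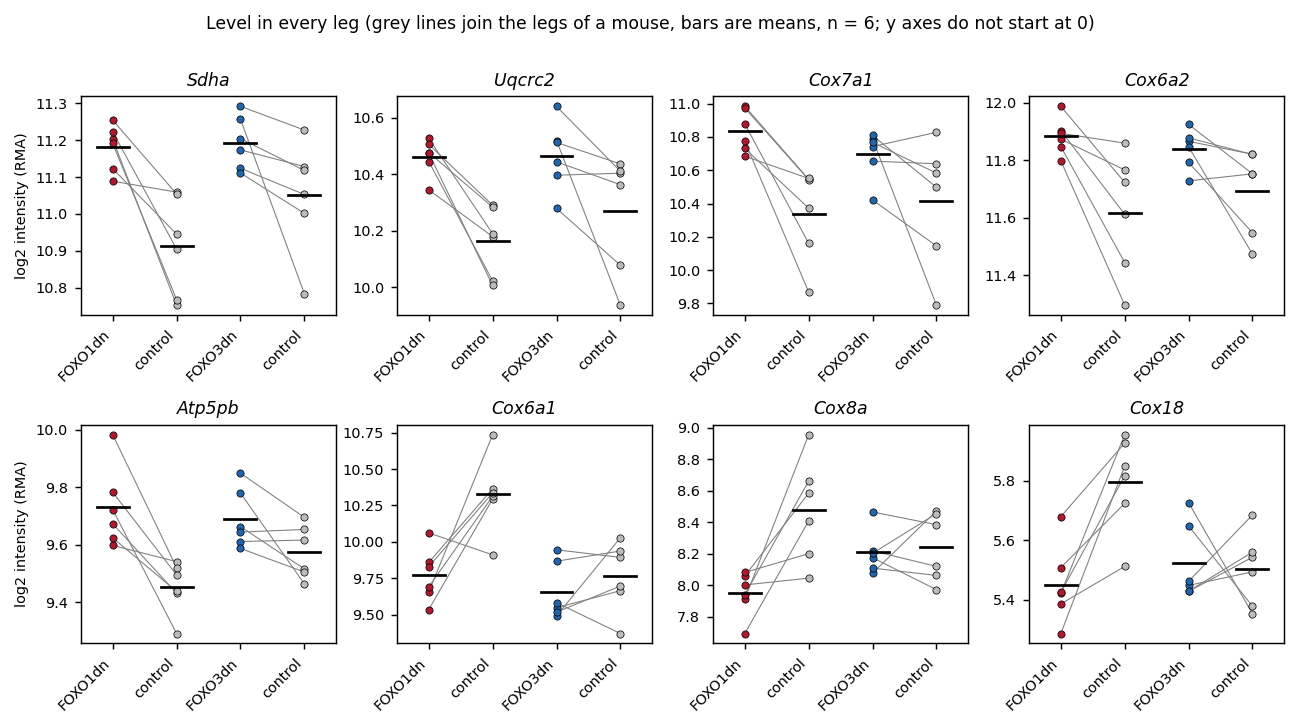
Log2 intensity of 8 genes in every leg, with FOXO1dn-labelled legs (red) and FOXO3dn-labelled legs (blue) each left of the control-labelled legs (grey) of the same mice, and bars at the means. Sdha, Uqcrc2, Cox7a1 and Atp5pb do not overlap between FOXO1dn-labelled and control-labelled legs, and Cox6a1, Cox8a and Cox18 are lower in FOXO1dn-labelled legs with some overlap.

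In complex V 2 of 17 genes rose in FOXO1dn-labelled legs and 0 fell, where 5.97% and 10.8% of all genes did. Atp5pb, subunit b of the peripheral stalk, had 9.60 to 9.98 (median 9.70) in FOXO1dn-labelled legs, against 9.29 to 9.54 (median 9.47) in control-labelled legs, without overlap. It rose by 0.28 (standard error 0.07, 6 of 6 mice, adjusted p = 0.00509 from limma), with adjusted p of at most 0.0302 without any single mouse. Atp5e, the epsilon subunit of the central stalk, had 7.57 to 8.04 (median 7.99) in FOXO1dn-labelled legs, against 7.23 to 7.79 (median 7.43) in control-labelled legs, and rose by 0.40 (6 of 6 mice, adjusted p = 0.0323). The second Atp5e probe set, at a mean of 4.28, differed by 0.21 (adjusted p = 0.473), and the call of Atp5e was lost without FOXO1dn replicate 2, 3 or 5 (adjusted p = 0.0728, 0.158 and 0.105). Neither subunit of the catalytic core passed. Atp5a1, the alpha subunit, had a difference of 0.18 without overlap of legs (6 of 6 mice, adjusted p = 0.0563), and Atp5b, the beta subunit, one of -0.05 (higher in 2 of 6 mice, adjusted p = 0.64).

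Atp5l, subunit g of the membrane part, differed by 0.21 (5 of 6 mice, adjusted p = 0.0835, and 0.0164 without FOXO1dn replicate 1). Atp5j2, subunit f, lay close to the median of the arrays at 2.68 to 3.58 (median 2.89) in FOXO1dn-labelled legs, against 3.03 to 3.57 (median 3.17) in control-labelled legs. Its difference was -0.25 (1 of 6 mice higher, adjusted p = 0.173, and 0.0107 without FOXO1dn replicate 1). The 3 genes that encode the same ring subunit c, Atp5g1, Atp5g2 and Atp5g3, differed by 0.05, 0.09 and 0.08, so that no gene of the ring passed.

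For FOXO3dn the ring subunit gene Atp5g3 had the smallest p of the 54 genes. It had 8.97 to 9.11 (median 9.01) in FOXO3dn-labelled legs, against 8.32 to 8.98 (median 8.80) in control-labelled legs, which barely overlapped. The difference was 0.29 (standard error 0.08, 6 of 6 mice, unadjusted p = 0.00102, adjusted p = 0.0767 from limma). The adjusted p was 0.0497 without FOXO3dn replicate 1 and 0.301 at most without another mouse, and 0.0273 among genes with a mean of at least 4.5. Atp5g2 and Atp5md, a small membrane subunit, were also higher in 6 of 6 mice, by 0.17 and 0.23 (adjusted p = 0.167 and 0.157). Atp5e differed by 0.33 (4 of 6 mice, adjusted p = 0.227), and its second probe set by -0.05 (adjusted p = 0.935).

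The constructs were compared by the difference of their differences. Limma called 0 of 54 genes, where 0.29% of all genes passed, and at an unadjusted p under 0.05 the difference was larger with FOXO1dn for 1 gene and smaller for 5, where 4.35% and 6.39% of all genes passed. The 5 were Cox18 (-0.37, 95% interval -0.60 to -0.13, adjusted p = 0.207), Cox8a (-0.49, -0.83 to -0.15, adjusted p = 0.258), Cox6a1 (-0.45, -0.79 to -0.10, adjusted p = 0.317) and the dim Atp5o and Atp5j2 (-0.37 each, adjusted p = 0.327 and 0.422), and the 1 was the dim Cox7b2 (0.29, adjusted p = 0.361). The same contrast was 0.21 for Cox7a1 and -0.10 for Cyc1, and neither was called. The cohorts also differed in their control-labelled legs. Cox6a1 averaged 10.3 in control-labelled legs of FOXO1dn mice and 9.77 in those of FOXO3dn mice, and 35 of the 54 genes had the higher mean in control-labelled legs of FOXO1dn mice, with a median difference of 0.09, beside 0.10 over all genes. Set against all 12 control-labelled legs together, Cox6a1 differed by -0.30 in FOXO1dn-labelled legs (adjusted p = 0.16) and Cox18 by -0.21 (adjusted p = 0.0992), and Cox8a was then the 1 gene still called lower.

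Complex I, assembly factors and regulators were counted as lists beside these genes. Of 32 subunits of complex I, which feeds electrons from NADH, 10 rose and 0 fell in FOXO1dn-labelled legs (5.97% and 10.8% of all genes), with a median of 0.20. Ndufs1, the largest subunit, rose by 0.43 and Ndufa12 by 0.41 (adjusted p = 0.00756 and 0.00618 from limma). In FOXO3dn-labelled legs 0 of 32 passed and 18 were higher at an unadjusted p under 0.05, with a median of 0.18. Among 31 assembly factors and partners of complexes II to V that the name rule leaves out, 4 rose and 3 fell with FOXO1dn, with a median of 0.11. The share that fell was close to the 10.8% of all genes, and the share that rose stands beside 5.97%. The assembly factors of complex III Ttc19, Bcs1l and Uqcc3 rose by 0.37, 0.35 and 0.34, and Cmc2 by 0.39. Those that fell were Sco1, a copper chaperone of complex IV (-0.53), Atpif1, the inhibitor of ATP synthase (-0.45), and Sdhaf1, an assembly factor of complex II (-0.33). With FOXO3dn 0 of these 31 passed.

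Of 18 regulators of mitochondrial biogenesis, 2 rose and 1 fell in FOXO1dn-labelled legs, where 5.97% and 10.8% of all genes did. With so few calls no conclusion is drawn about the list as a whole, which was not tested against all genes. Perm1, a muscle regulator downstream of PGC-1 and ERR, rose by 0.96 (adjusted p = 0.00589 from limma), and Esrra, which encodes ERRα, by 0.44 (adjusted p = 0.0367), while the PGC-1 related Pprc1 fell by 0.23 (adjusted p = 0.0302). Ppargc1a, which encodes PGC-1α, differed by 0.53 with a standard error of 0.28 (adjusted p = 0.233). In FOXO3dn-labelled legs 0 of 18 passed, with 0.62 for Perm1 (adjusted p = 0.216) and 0.30 for Esrra (adjusted p = 0.343).

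Of the remaining genes, Cox6b1, Cox7a2l, Cox20, Cox7c, Atp5c1, Atp5d, Atp5h, Atp5j, Atp5k and Atp5mpl had differences of -0.01 to 0.21 in FOXO1dn mice (adjusted p of at least 0.146) and 0.08 to 0.21 in FOXO3dn mice (adjusted p of at least 0.324), and 0 of these 10 passed. The isoforms best known from lung or testis, Cox4i2, Cox6b2, Cox7b2 and Cox8c, had means of 3.03 to 3.56, close to the array medians of 3.23 to 3.34, and 0 of 4 passed for either construct. Of the 10 genes with a mean under 4.5, 0 were called. Genes on more than 1 probe set were Cox5b, Cox7b, Atp5d, Atp5e, Atp5g2 and Atp5h, and the second probe sets had differences of the same sign as the first in FOXO1dn mice for each of them, and in FOXO3dn mice for each except Atp5e. Without any single FOXO1dn mouse, 47 of the 54 genes kept the sign of their difference, and 5 of the 13 called genes, Sdha, Atp5pb, Cox6a1, Cox8a and Cox18, were called each time. FOXO1dn replicate 3 mattered most for the increases, and without it Sdha and Atp5pb were the 2 genes called higher.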

How the data were processed

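RNA of 24 tibialis anterior muscles, both legs of 12 mice, was measured on 1 array each. The deposited values are log2 intensities for 41345 probe sets, which the authors normalized by RMA, with replicates kept apart. They were used as deposited, and the number of arrays limits the precision. RMA scales the probes of all arrays to 1 distribution, so differences are relative to the whole array. Probe sets with exactly 1 gene symbol (23521, beside 1820 with several and 16004 with none) were kept, 1888 for pseudogenes, predicted genes and microRNAs were dropped as in the methods of the study, and the probe set with the highest mean stood for a gene, which left 20379 genes.

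Groups came from the array labels. All 24 arrays were fitted in 4 groups with limma 3.58.1 in R 4.3.3 (lmFit, duplicateCorrelation on the mouse with statmod 1.5.0, eBayes), and p-values were adjusted by Benjamini-Hochberg over all genes. The fit was tested on simulated data. Legs are paired by the mouse numbers in the labels, with the control plasmid in the contralateral leg. Within a mouse, the 2 legs' deviations from the group means correlated across genes at Pearson r of -0.366 to 0.29, and the consensus correlation was 0.0609. Isoform pairs were compared within mice by exact sign flips. The genes named by rule were complex II and Cyc1, those with the largest differences in each complex, those called lower and the isoform pairs, and the others in the text were named after their values were seen. The respiratory genes, the lists and the tests were chosen with earlier results of these data known. Promoter windows are those of RefSeq (GRCm38.p6), read with Python 3.11.15. Alternatives were no mouse block or a fixed one, each construct alone, all control-labelled legs as 1 group, other probe-set, dim-gene, normalization and variance settings, and each mouse left out.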

Additional observations from a re-analysis of the deposited data

Results flagged for a closer look

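Of 116 combinations of a named gene and a group of 6 legs, 5 held an array that stood apart from the other 5, where chance alone gives about 1 in 20, or 5.8. Atp5l was 9.42 in the FOXO1dn-labelled leg of replicate 1, against 9.68 to 9.80 in the other FOXO1dn-labelled legs. It was also low in a control-labelled leg of the same cohort, with 9.22 in replicate 3, against 9.47 to 9.59 in the others. Cox10 was 7.22 in the FOXO1dn-labelled leg of replicate 2, against 7.48 to 7.56. Cox5b was 10.1 in the FOXO1dn-labelled leg of replicate 4, against 9.56 to 9.77. Cox8a was 8.47 in the FOXO3dn-labelled leg of replicate 4, against 8.08 to 8.22. The cause of these values was not tested.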

How the results depend on the processing

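The median differences of the 54 genes kept their sign in every alternative run, with 0.14 to 0.21 for FOXO1dn and 0.07 to 0.17 for FOXO3dn when single mice were left out. Counts of calls moved more. The 10 genes called higher in FOXO1dn-labelled legs became 20 against all 12 control-labelled legs as 1 group. That setting compares legs across cohorts, and its median difference over all genes was 0.05, beside 0.01 in the main fit. The 10 became 18 among genes with a mean of at least 4.5, where fewer genes were tested. Without single FOXO1dn mice they ranged over 2 to 9, with 2 without replicate 3, 5 without replicate 2 and 6 without replicate 5. The 3 called lower became 1 against all 12 control-labelled legs. For FOXO3dn the 0 called higher became 6 against all 12 control-labelled legs, 2 among genes with a mean of at least 4.5 and 0 to 2 without single FOXO3dn mice, with 2 without replicate 1. The 0 genes called between constructs became 3 with all 12 control-labelled legs as 1 group. The cause of these changes in counts was not tested. Cox8c, a dim gene, had 0.03 in FOXO1dn mice, -0.029 against all 12 control-labelled legs and -0.015 to 0.056 without single mice.

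Without the replicate block 10 genes were called higher and 3 lower with FOXO1dn, the same 13 genes. With the mouse as a fixed replicate block there were also 10 and 3, of which 12 were shared, with Cox14 lost (adjusted p = 0.0558) and Cox5b gained (adjusted p = 0.0357). The block changed no other call among the named genes.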
